A study of Mus musculus with 6 samples.

Results

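The nuclear receptors were followed in the livers of mice treated with trichloroethylene (TCE), a chlorinated solvent. Genes were included when the array annotation gave a symbol of the systematic nuclear receptor type, Nr with a subfamily digit from 0 to 6, a group letter and a member digit, or when they were among the receptors known by older names (Ppara, Rxra, Thra, Esr1, Hnf4a and others), which gave 47 of the 24239 genes on the array with 74 probes. Male B6C3F1 mice, 7 weeks old, received corn oil alone (control, n = 3) or TCE in corn oil at 1000 mg/kg b.w. by gavage once a day for 5 days (TCE, n = 3). The labels name no genetic alteration, and each liver was measured on a separate 1-colour array. Only 1 dose and 1 time were measured on arrays.

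Nuclear receptors are transcription factors that bind DNA mostly as dimers and that switch target genes on or off when a small lipid-soluble ligand, such as a fatty acid, bile acid, oxysterol, retinoid, thyroid hormone or steroid, sits in their pocket. In the liver they control fatty acid oxidation, bile acid and cholesterol balance, drug metabolism and the daily rhythm of metabolism, and many of them work as partners of a retinoid X receptor. Their activity is set largely by ligand, by coactivators and corepressors and by location in the cell, so the mRNA of a receptor and the mRNAs of its targets are separate readouts.

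Members of the family recognize variants of the bases AGGTCA, alone or repeated. Of the 47 genes, 43 had a promoter window in the RefSeq sequences of GRCm38.p6, which run from 250 bases before a transcription start site to 50 bases after it. AGGTCA, searched on both strands, was found in 12 of the 64 windows of nuclear receptor genes used (18.8%), against 16.3% of all 32851 windows, so that the receptors' own promoters held these letters about as often as promoters in general. The direct repeat AGGTCANAGGTCA was in 0 of the 64 windows and in 0.0396% of all windows, and the E-box CACGTG, bound by clock factors, was in 6 of the 64 windows (9.38%) and in 7.15% of all windows. The windows shown are those of Nr1h4, Nr5a2 and Rxra, which hold the motif. These receptors were also lower in every TCE mouse than in every control mouse on at least 1 probe, as described below. Of the other detected receptors with the motif, Nr1d2, Pparg, Rxrg and Rara had higher means in TCE mice, and Rarg and Thrb lower ones. Nr2f6 and Esrra, lower without overlap, were not among the receptors with the motif. A link between the motif and the direction of change was not tested. Capitals mark AGGTCA or, where the match lies on the other strand, TGACCT, and a match in this window is not evidence of binding.
Nr1h4 (minus strand, chr10:89506609-89506908): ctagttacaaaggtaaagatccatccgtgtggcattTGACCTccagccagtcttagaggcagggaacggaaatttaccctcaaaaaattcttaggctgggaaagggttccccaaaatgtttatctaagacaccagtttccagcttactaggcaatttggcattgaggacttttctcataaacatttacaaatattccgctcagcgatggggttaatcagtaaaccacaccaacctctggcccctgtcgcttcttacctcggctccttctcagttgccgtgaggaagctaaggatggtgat
Nr5a2 (minus strand, chr1:136960399-136960698): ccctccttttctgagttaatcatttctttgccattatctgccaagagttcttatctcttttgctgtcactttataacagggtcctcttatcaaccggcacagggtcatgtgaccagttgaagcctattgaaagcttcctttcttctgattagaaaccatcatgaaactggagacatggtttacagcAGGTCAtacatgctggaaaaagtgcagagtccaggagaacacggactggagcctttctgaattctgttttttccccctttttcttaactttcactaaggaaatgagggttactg
Rxra (plus strand, chr2:27709042-27709341): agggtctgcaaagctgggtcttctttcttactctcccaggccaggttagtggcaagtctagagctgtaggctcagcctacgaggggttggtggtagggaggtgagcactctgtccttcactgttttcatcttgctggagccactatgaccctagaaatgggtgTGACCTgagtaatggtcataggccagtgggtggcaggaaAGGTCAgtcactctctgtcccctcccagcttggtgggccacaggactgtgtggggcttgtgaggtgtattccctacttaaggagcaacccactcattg
The match began 214 bases before the start site in Nr1h4 and 64 bases before it in Nr5a2, and the Rxra window held 1 match on each strand, 87 and 48 bases before the start site. The windows of Nr4a2, Nr1i2 and Nr1d1 held neither the AGGTCA motif nor the E-box.

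The arrays carried 55681 probes that are not controls, of which 23537 to 24965 per mouse were well above background, and 0 spots were saturated. Values below are log2 signals after quantile normalization of the 6 arrays, and a log2 fold change is the mean of the TCE mice minus the mean of the control mice, with the standard error (SE) of a linear model fitted to all detected probes with limma (two-sided, Benjamini-Hochberg adjustment over 22731 probes). Detection required a signal well above background in all 3 mice of either group, and a gene with several detected probes was represented by the one with the highest mean signal. The array of control mouse 1 sat alone on its slide and was scanned separately, while those of the other 2 control mice and the 3 TCE mice shared the second slide. A fit with slide as a block therefore estimated the change within the second slide, in effect without control mouse 1. Such a fit cannot tell an effect of the slide from the loss of that mouse. Of 9 listed hepatocyte markers detected, such as Alb and Ttr, 0 differed at an adjusted p of 0.05. Still, 7 of them had lower and 2 higher means in TCE mice, with a median of -0.18. Their mean signal was 16.2 to 16.27 in control and 16.02 to 16.12 in TCE mice. The listed markers of adipocytes and skeletal muscle were not detected by the rule used. With 3 mice per group the number of arrays limits the precision, and the smallest p that an exact permutation test of 3 against 3 mice can give is 0.1 (two-sided).

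Of the 47 receptors, 37 were detected in the liver and 36 of these were well above background in all 6 mice; Nr3c2, the mineralocorticoid receptor, was so in 5. The other 10 were not tested. Hnf4g, Nr0b1, Nr2e1, Nr2e3, Nr4a3, Rorb and Vdr, the vitamin D receptor, had no probe well above background in any mouse, and Esrrg, Nr6a1 and Pgr had one in some mice only. For Pgr, the progesterone receptor, a single probe gave 7.41 in TCE mouse 3 and 2.58 to 2.66 in the other mice, while its 2 other probes were not above background in any mouse. Nr5a1, a factor of adrenal gland and gonads, was above background in all 6 mice, between 8.64 and 9.42. Of 7 adrenal markers looked up for this reason after the values were seen, only Cyp17a1 and Cyp21a1 were detected, whereas Star, Cyp11a1, Cyp11b1, Hsd3b1 and Mc2r were not above background in enough mice to be tested; what the Nr5a1 probe measures here was not tested further.

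At 1000 mg/kg b.w. of TCE, 0 of the 37 detected receptors were up-regulated and 0 were down-regulated when a limma adjusted p of 0.05 or less was required together with a change of at least 2-fold, where 1.73% of all 13284 detected genes were (1.3% up and 0.429% down). Without the fold criterion the count was also 0, against 2.39% of all genes (1.8% up and 0.587% down). Before adjustment, a limma p under 0.05 was reached by 5 receptors, Nr4a2 and Nr1i2 with higher and Thra, Nr2f2 and Nr5a2 with lower signals in TCE mice, that is 5 of 37 where the share over all genes was 19.1% (12% higher and 7.11% lower). With the methods' t-test, 4 receptors reached an unadjusted p of 0.05, 2 in each direction, against 19% of all genes (12.1% and 6.88%), and 0 did so with a fold change of 2 or more, against 3.09% (2.15% higher and 0.949% lower). Of all receptors 17 had a higher and 20 a lower mean in TCE mice, and of 13 receptors with more than 1 detected probe, 9 had the same sign in all of them. The median log2 fold change of the receptors was -0.03 and that of all genes 0.02, and the median size of the change, in either direction, was 0.24 for the receptors and 0.2 for all genes.

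For most receptors, as for most genes, the interval of the change stayed within 2-fold before any adjustment for the number of probes. The 95% confidence interval of the fold change lay within 2-fold in either direction for 31 of the 37 receptors (83.8%, and 80.3% of all genes). The 6 intervals that reached 2-fold were those of Nr4a2, Rxrg, Nr0b2, Nr1d1, Nr2f2 and Esrrb. A change of 0.5 or more on the log2 scale was measured in 5 receptors (13.5%, against 15.8% of all genes), and a change of 1 or more in 0 of 37, against 4.61% of all genes. The 3 TCE mice did not overlap the 3 control mice for 8 of 37 receptors, where 27.9% of all genes were so separated. Nr4a2, Nr1i2 and Rxrb lay higher, against 17.1% of all genes, and Thra, Nr5a2, Nr2f6, Nr1h4 and Esrra lay lower, against 10.8%. Of the TCE mice, mouse 2 lay nearest to the control mean for 17 receptors, mouse 3 for 11 and mouse 1 for 9.

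**Figure D1:**
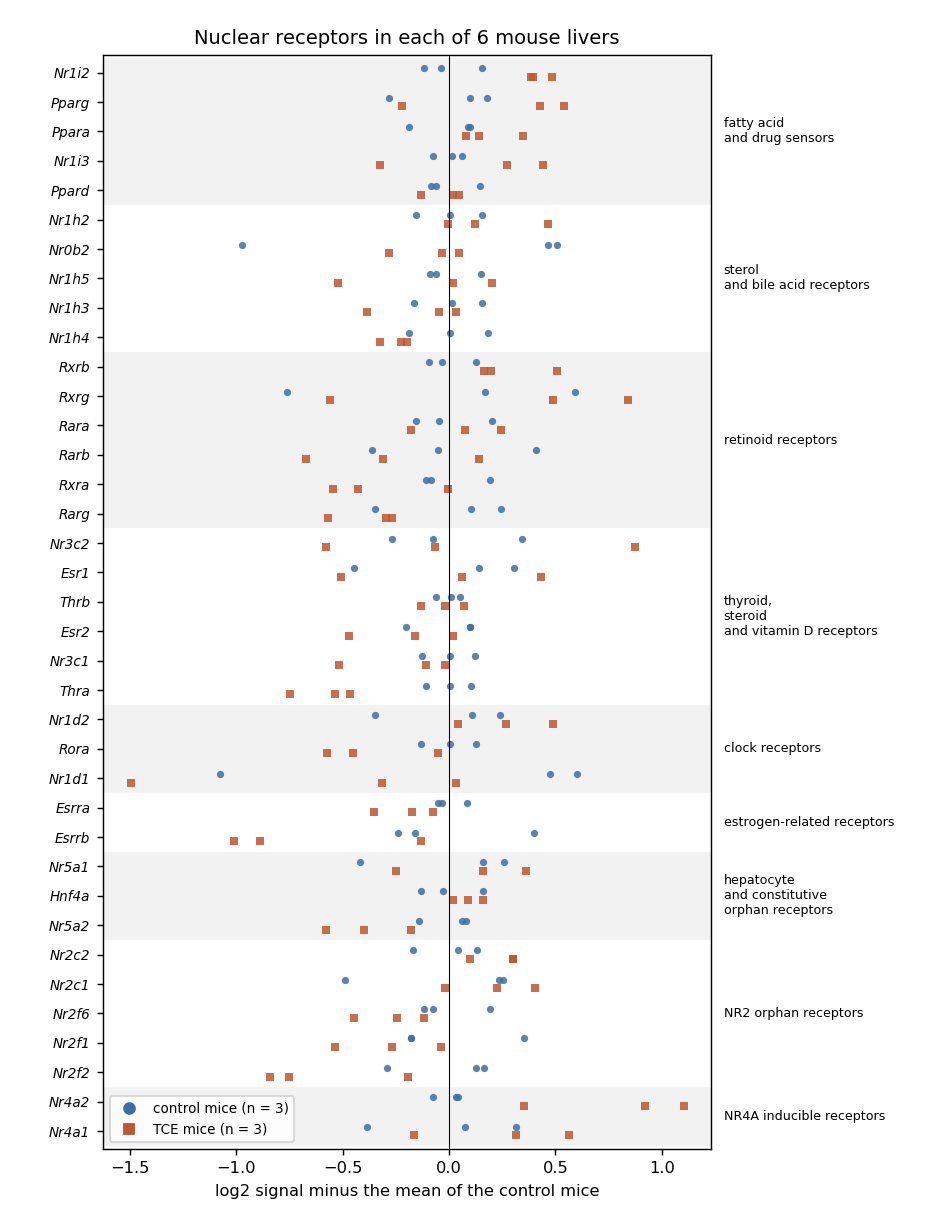
Log2 signal of each of the 37 detected receptors in each mouse, minus the mean of the control mice, with control mice as blue circles and TCE mice as orange squares (n = 3 each) and receptors grouped by role. The 3 TCE mice stand clear of the control mice for 8 receptors, among them Nr1i2, Thra and Nr4a2, and the groups overlap for the others.

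**Figure D2:**
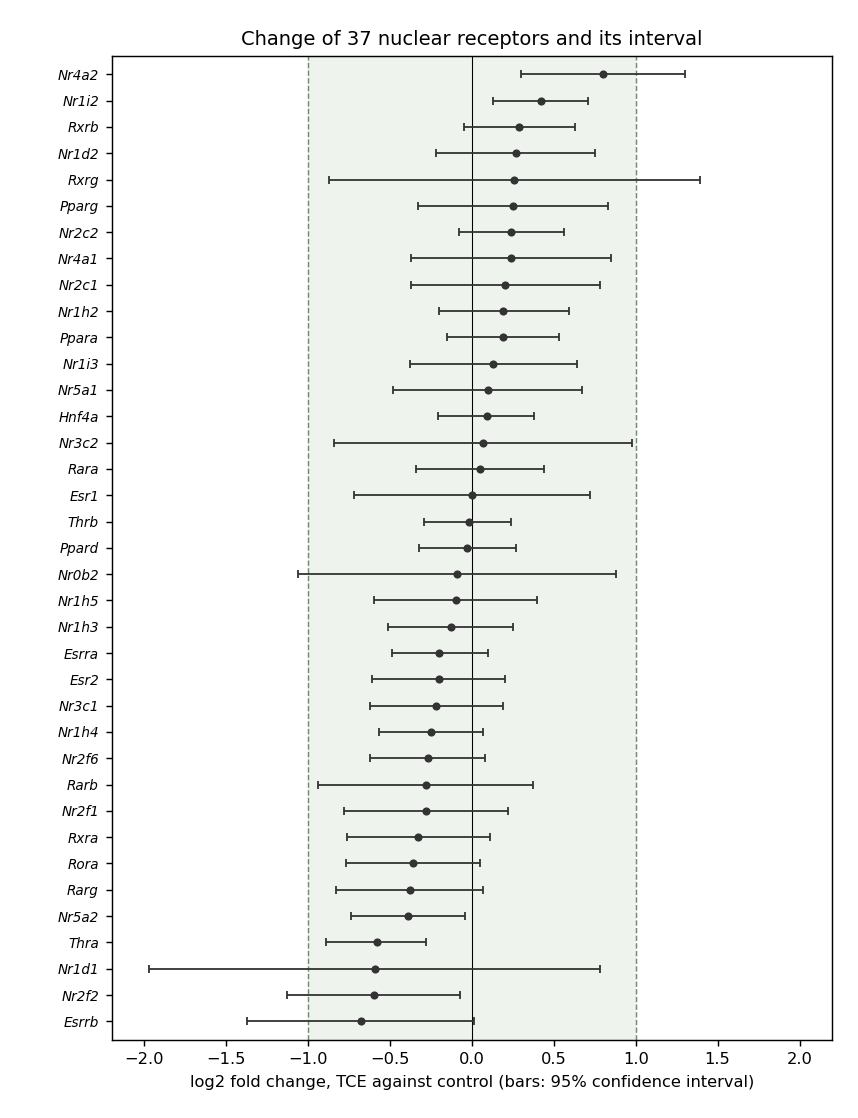
Log2 fold change of the 37 receptors in TCE against control mice, ordered by size, with the 95% confidence interval of the limma fit as bars and a shaded band for changes under 2-fold. The bars of 31 receptors stay inside the band, and the intervals of Nr4a2, Nr1i2, Thra, Nr2f2 and Nr5a2 leave out 0 before adjustment for the number of probes.

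The receptors for fatty acids and drugs came first, since peroxisome proliferators act through one of them. Ppara, the receptor for fatty acids and peroxisome proliferators that drives hepatic fatty acid oxidation, had signals of 14.46, 14.45 and 14.17 in control mice 1, 2 and 3 and of 14.71, 14.44 and 14.50 in TCE mice 1, 2 and 3. The groups overlapped, and the log2 fold change was 0.19 ± 0.14 (SE, limma adjusted p = 0.535) with a 95% interval from -0.15 to 0.53. The 3 Ppara probes, on chromosome 15 between 85632110 and 85637252 of mm9, gave changes of 0.17 to 0.20. On the probe at 85632534 to 85632593 all TCE mice lay above all control mice (0.20, limma adjusted p = 0.399). By the interval of the brightest probe, Ppara mRNA was at most 1.44-fold higher in TCE mice. By comparison, 19 of 20 listed PPARalpha targets were higher in TCE mice, 15 of them at an adjusted p of 0.05 or less, with a list median of 1.61, where all genes had a median of 0.02. Cyp4a14, a fatty acid omega-hydroxylase, was higher by 5.42, its relative Cyp4a10 by 4.02, and Acot2, a mitochondrial acyl-CoA thioesterase not above background in control mice, at least 22.7-fold on the processed signal, with a log2 fold change of 2.99 after normexp background correction. With slide as a block 10 of the 20 targets were called and without control mouse 3, the fit with the fewest calls among those that left out a mouse, 8 were, and these 3 genes were called in each of those fits.

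Nr1i2, the pregnane X receptor (PXR) for drugs and steroids, lay higher in every TCE mouse than in every control mouse. Its probe on chromosome 16 (38248745 to 38248804 of mm9) gave 10.99, 11.26 and 11.07 in control mice and 11.49, 11.59 and 11.50 in TCE mice. The log2 fold change was 0.42 ± 0.12 (SE, limma adjusted p = 0.151), or 0.36 on the second slide alone (adjusted p = 0.322), so that it did not pass the test. Nr1i3, the constitutive androstane receptor (CAR), gave 12.59, 12.45 and 12.54 in control mice and 12.80, 12.97 and 12.20 in TCE mice, with TCE mouse 3 below and the other TCE mice above all controls. Its log2 fold change of 0.13 ± 0.21 (SE, limma adjusted p = 0.789) was within the spread between mice, and a second probe gave 0.00. Ppard and Pparg, the receptors of fatty acids in most tissues and in fat, had changes of -0.03 and 0.25.

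The listed targets of these drug sensors held genes with changes in both directions. Of 9 CAR targets, Akr1b7, an aldo-keto reductase not above background in control mice, was at least 3.36-fold higher on the processed signal (limma adjusted p = 0.0157), a size that normexp background correction did not keep (0.70 on the log2 scale, adjusted p = 0.133), and Cyp2c37 lower by a log2 fold change of -1.03 (adjusted p = 0.0207), with a list median of 0.79. Cyp2b10, the usual readout of CAR, gave 10.36, 9.53 and 9.85 in control mice and 13.34, 11.20 and 12.63 in TCE mice. These groups did not overlap, but at a log2 fold change of 2.48 ± 0.54 (SE) the adjusted p of 0.0886 missed the threshold. Cyp2b10 passed with array weights (2.95, adjusted p = 0.0282), but not with normexp (adjusted p = 0.0557) or slide as a block (adjusted p = 0.154). Among fits with 1 mouse left out its lowest adjusted p was 0.0318. Of 8 PXR targets, Slco1a4, an organic anion transporter, was lower by -1.24 (adjusted p = 0.0328) and 0 were higher at an adjusted p of 0.05, with a list median of 0.08. With slide as a block the count was 1 higher and 0 lower, and with normexp or array weights 2 higher and 1 lower. Cyp3a44, a P450 named after its values were seen and not above background in control mice, was at least 2.51-fold higher on the processed signal (limma adjusted p = 0.0738, and 0.0219 with slide as a block), and 0.79 on the log2 scale after normexp background correction (adjusted p = 0.0454). Cyp3a11, the main PXR-induced P450 of mouse liver, had a change of -0.16. The calls of Akr1b7, Cyp2c37 and Slco1a4 were lost with slide as a block (adjusted p of 0.0558, 0.0796 and 0.1).

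**Figure D3:**
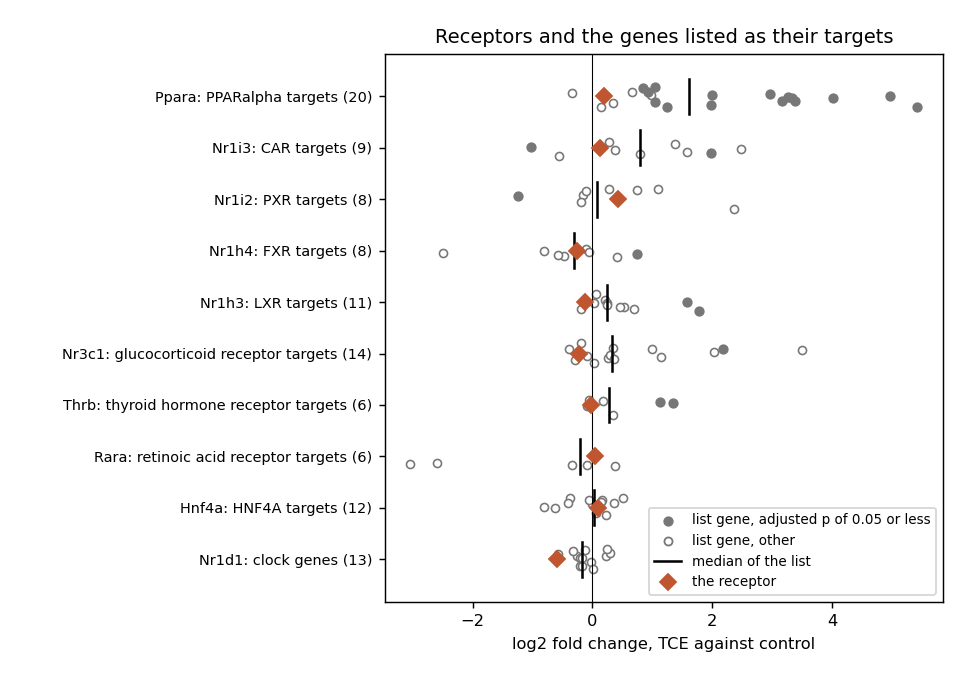
Log2 fold changes in TCE against control mice of 10 receptors (orange diamonds) and of the genes listed beside them (circles, filled at a limma adjusted p of 0.05 or less). The lists hold targets of the receptor, except for Nr1d1, which is shown beside clock genes. The number of genes is given in parentheses and the list median as a bar. The diamonds lie between -0.59 and 0.42, while the PPARalpha targets extend to 5.42 with a median of 1.61.

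Among the sterol and bile acid receptors no detected member passed the test. Nr1h4, the bile acid receptor FXR, gave 14.06, 13.69 and 13.88 in control mice and 13.55, 13.68 and 13.65 in TCE mice. The lowest control mouse and the highest TCE mouse were next to each other, and the log2 fold change was -0.25 ± 0.13 (SE, limma adjusted p = 0.384). Nr1h3 and Nr1h2, the oxysterol receptors LXRalpha and LXRbeta, had changes of -0.13 ± 0.16 and 0.19 ± 0.16 (SE). The Nr1h3 signals were 13.67, 13.85 and 13.99 in control mice and 13.87, 13.45 and 13.79 in TCE mice, and the groups overlapped. Nr1h5, FXRbeta, had a change of -0.10. The small heterodimer partner Nr0b2, an FXR-induced repressor without a DNA-binding domain, varied more within groups than between them: it gave 9.52, 9.56 and 8.08 in control mice and 8.77, 9.02 and 9.10 in TCE mice, and the difference on the log2 scale was -0.09 ± 0.40 (SE, limma adjusted p = 0.935). The value depended on control mouse 3: the change was -0.57 without it (adjusted p = 0.208) and 0.15 on the second slide alone.

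Of 8 listed FXR targets, 1 was called: Abcb4, the canalicular phospholipid transporter, was higher by 0.74 on the log2 scale (limma adjusted p = 0.0465, and 0.134 with slide as a block). The list also holds Cyp7a1, which is repressed through Nr0b2, so its median of -0.30 gives no direction for FXR activity. Cyp7a1, the rate-limiting enzyme of bile acid synthesis that Nr0b2 represses, gave 9.36, 8.20 and 10.14 in control mice and 7.66, 5.75 and 6.79 in TCE mice; the groups did not overlap, and the change of -2.50 ± 0.63 (SE) missed the threshold (adjusted p = 0.118). Of 11 LXR targets, Scd1, a fatty acid desaturase, was higher by 1.78 (adjusted p = 0.00615, and 0.0250 with slide as a block) and Pltp, the phospholipid transfer protein, by 1.57 (adjusted p = 0.0149, and 0.0609 with slide as a block). The other 9 LXR targets did not pass and the list median was 0.25.

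The retinoid receptors differed among themselves in direction. Rxra, the main retinoid X receptor of hepatocytes, had 2 detected probes on chromosome 2. The brighter probe (27615316 to 27615375 of mm9) gave 8.84, 9.14 and 8.86 in control mice and 8.40, 8.94 and 8.52 in TCE mice, so that TCE mouse 2 lay among the controls. Its log2 fold change was -0.33 ± 0.18 (SE, limma adjusted p = 0.402). The other probe (27618781 to 27618839) gave 8.80, 8.55 and 8.78 in control mice and 8.24, 8.30 and 8.02 in TCE mice, which did not overlap, with a change of -0.52 ± 0.14 (SE, limma adjusted p = 0.124). Rxrb, the broadly expressed form, lay on the other side: 12.27, 12.21 and 12.43 in control mice and 12.50, 12.81 and 12.47 in TCE mice, with a change of 0.29 ± 0.14 (SE, limma adjusted p = 0.348) without overlap. Rxrg had a wide spread in both groups, from 8.99 to 10.34 in control and from 9.19 to 10.59 in TCE mice, and a change of 0.26 ± 0.47 (SE). Among the retinoic acid receptors, Rara, Rarb and Rarg had changes of 0.05, -0.28 and -0.38, with overlapping groups in each case, and a second Rara probe gave -0.11. A second Rarb probe was well above background in 2 control mice and 0 TCE mice and was not tested.

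Next to the receptors stand the enzymes that make, store and remove retinoids and other ligands. Among 20 detected genes of ligand synthesis and breakdown, with a list median of -0.12, 1 was up-regulated and 1 down-regulated. Rdh16, a retinol dehydrogenase, gave 10.84, 10.61 and 10.67 in control mice and 12.36, 12.35 and 12.65 in TCE mice, and the change of 1.75 ± 0.14 (SE, limma adjusted p = 0.00439) held within the second slide (1.82, adjusted p = 0.0218). Cyp7b1, an oxysterol hydroxylase, was lower by -1.43 ± 0.24 (SE, limma adjusted p = 0.0440, and 0.0780 with slide as a block). Other retinoid genes are given here because of their values, after these were seen. Cyp26b1, which breaks down retinoic acid and is induced by its receptors, gave 10.01, 9.84 and 9.52 in control mice and 5.24, 8.27 and 6.73 in TCE mice. Every TCE mouse lay below every control mouse, and the change of -3.04 ± 0.71 (SE) missed the threshold (limma adjusted p = 0.102), which it passed with normexp (-2.27, adjusted p = 0.039) and with array weights (adjusted p = 0.0358). Cyp26a1, its relative, gave 7.70, 10.22 and 6.90 in control mice and 7.66, 5.03 and 4.35 in TCE mice, above background in 1 TCE mouse, and the groups overlapped. Lrat, which esterifies retinol for storage in stellate cells, gave 8.08, 8.56 and 7.85 in control mice and 7.01, 6.35 and 7.08 in TCE mice (-1.35 ± 0.27 SE, limma adjusted p = 0.0676, and 0.0454 with normexp). Of 6 detected targets of retinoic acid receptors, which include Cyp26a1 and Cyp26b1, 0 were called (1 lower with normexp or array weights), and the list median was -0.21; before adjustment Cyp26b1 had a p of the methods' t-test of 0.0263.

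**Figure D4:**
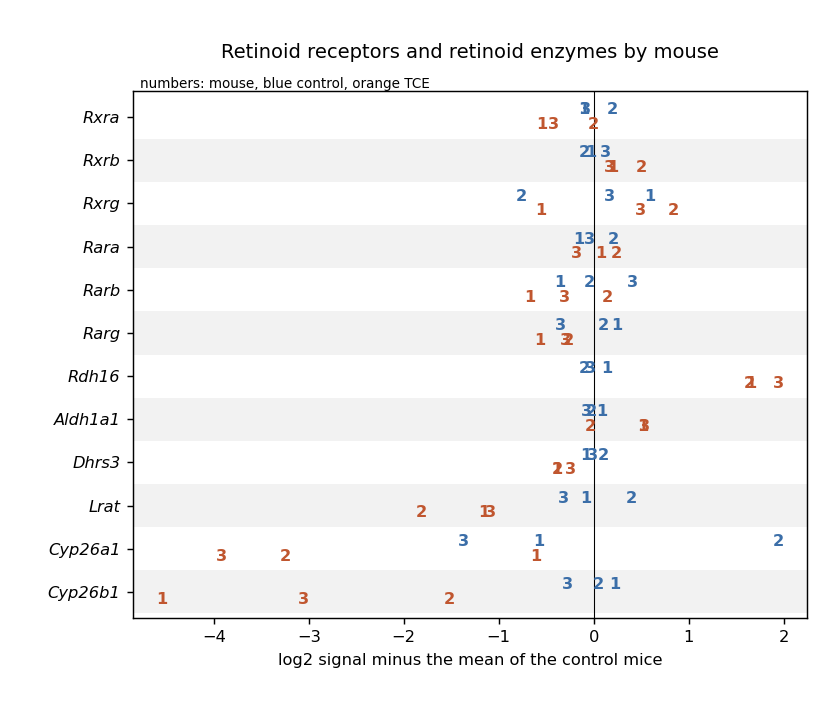
Log2 signal of 6 retinoid receptors and 6 retinoid genes in each mouse, minus the mean of the control mice, with the mouse number printed at its value (blue control, orange TCE). The receptors stay within about 1 of the control mean, whereas all 3 TCE mice lie above the controls for Rdh16 and below them for Lrat, Dhrs3 and Cyp26b1.

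Thra, one of the genes for the thyroid hormone receptors, had the lowest adjusted p of all 37 receptors. Its probe on chromosome 11 (98626356 to 98626415 of mm9) gave 10.41, 10.30 and 10.51 in control mice and 9.87, 9.94 and 9.66 in TCE mice. Every TCE mouse lay below every control mouse, and the log2 fold change was -0.58 ± 0.13 (SE, limma adjusted p = 0.0886), with a 95% interval from -0.89 to -0.28. Within the second slide the change was -0.58 (adjusted p = 0.211), and with another background correction (normexp) it was -0.60 with an adjusted p of 0.0352, the sole setting with adjusted p values in which a receptor passed. A second Thra probe, which was above background in 2 control mice and 0 TCE mice, was not tested. Thrb, the form through which thyroid hormone acts on hepatocytes, gave 9.81, 9.88 and 9.92 in control mice and 9.94, 9.74 and 9.85 in TCE mice, a change of -0.02 ± 0.11 (SE, limma adjusted p = 0.936) with a 95% interval from -0.29 to 0.24. Thus the intervals of both thyroid hormone receptors lay within 2-fold. Of 6 listed thyroid hormone targets, 2 were up-regulated, Me1, malic enzyme, by 1.34 (limma adjusted p = 0.0261) and Gpd2, the mitochondrial glycerol-phosphate dehydrogenase, by 1.12 (adjusted p = 0.0230), and 0 were down-regulated, with a list median of 0.27. With slide as a block both calls were lost (adjusted p of 0.0914 and 0.0558).

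Among the steroid receptors, Nr3c1, the glucocorticoid receptor, gave 12.95, 12.82 and 13.07 in control mice and 12.84, 12.93 and 12.43 in TCE mice. TCE mouse 3 lay below all other mice and the groups overlapped (-0.22 ± 0.17 SE, limma adjusted p = 0.555). Of 14 listed glucocorticoid receptor targets, Igfbp1, an insulin-like growth factor binding protein, was up-regulated by 2.18 on the log2 scale (limma adjusted p = 0.0301, and 0.0830 with slide as a block), 0 were down-regulated and the list median was 0.32. Esr1, the estrogen receptor of the liver, had a change of 0.00 ± 0.30 (SE) on its only detected probe, and its other probes were not tested. Esr2 had a change of -0.20 and Nr3c2 one of 0.07, and the groups of these receptors overlapped.

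Nr1d1, which encodes REV-ERBalpha, the heme-binding repressor of the circadian clock, varied most within groups of all 37 receptors, with a within-group SD of 0.87 that exceeded that of 98.1% of all genes. Its probe on chromosome 11 gave 10.10, 9.97 and 8.42 in control mice and 8.00, 9.53 and 9.18 in TCE mice. Control mouse 3 and TCE mouse 1 were low, the groups overlapped, and the log2 fold change was -0.59 ± 0.57 (SE, limma adjusted p = 0.634). Without control mouse 3 the change was -1.13 (adjusted p = 0.363), and without TCE mouse 1 it was -0.14 (adjusted p = 0.929). Nr1d1 and Thra are neighbours whose gene bodies overlap by 1075 bases on chromosome 11 of GRCm38.p6, on opposite strands. Nr1d2, which encodes REV-ERBbeta, gave 10.77, 10.64 and 10.18 in control mice and 10.80, 11.02 and 10.57 in TCE mice (0.27 ± 0.20 SE, limma adjusted p = 0.540). The array annotation places this probe on chromosome 19, whereas RefSeq places the gene on chromosome 14, and what the probe measures was not tested. A second probe, annotated on chromosome 14, gave 0.37, and control mouse 3 was the lowest control mouse on it too (9.94, 9.75 and 9.27). Rora, an activator that competes with both at the same DNA sites, had a change of -0.36 ± 0.17 (SE, limma adjusted p = 0.332). Of 13 detected clock genes 0 were called, with a list median of -0.17, and the output gene Dbp, the core activator Arntl and the repressor Per3 had changes of -0.21, -0.26 and -0.33.

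Control mouse 3, which was low in Nr1d1, was also the lowest control mouse in Nr1d2 and Nr0b2. Alas1, the rate-limiting enzyme of heme synthesis, was chosen after its values were seen because the same mouse stood apart in it: the signals were 14.53, 14.28 and 16.87 in control mice and 16.70, 16.90 and 16.19 in TCE mice. Control mouse 3 thus lay among the TCE mice, and the log2 fold change of 1.37 (limma adjusted p = 0.356) became 2.18 without it (adjusted p = 0.0435).

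**Figure D5:**
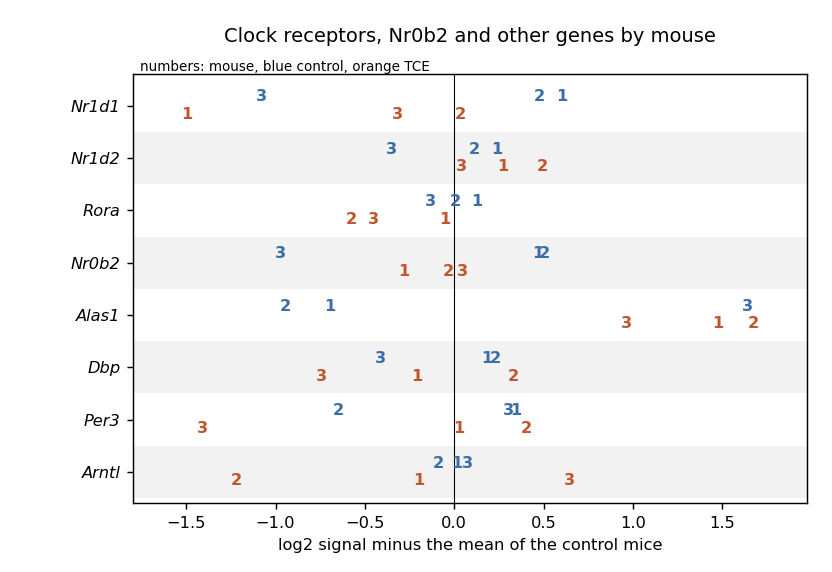
Log2 signal of 3 clock receptors, Nr0b2 and 4 other genes in each mouse, minus the mean of the control mice, with the mouse number printed at its value (blue control, orange TCE). Control mouse 3 lies below the other control mice for Nr1d1, Nr1d2 and Nr0b2 and above them for Alas1.

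The NR4A receptors, whose genes are induced quickly by stress and hormones, held the highest log2 fold change among the 37 receptors, except after normexp background correction, where Nr4a2 was 0.39 and Nr1i2 0.41. Nr4a2 on chromosome 2 (56960699 to 56960758 of mm9) gave 5.38, 5.27 and 5.39 in control mice and 5.70, 6.45 and 6.27 in TCE mice. All TCE mice lay above all control mice, by an amount that differed between them, and the log2 fold change was 0.80 ± 0.21 (SE, limma adjusted p = 0.126), with a 95% interval from 0.30 to 1.30. Within the second slide it was 0.81 (adjusted p = 0.254), and the lowest adjusted p among fits with 1 mouse left out was 0.0627, without TCE mouse 1, so that Nr4a2 passed in none of these. A second Nr4a2 probe was not above background in any mouse. Nr4a1 had a change of 0.24 ± 0.25 (SE) with overlapping groups.

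Hnf4a, the constitutively active receptor that maintains hepatocyte identity, gave 16.28, 15.99 and 16.09 in control mice and 16.21, 16.28 and 16.14 in TCE mice. The groups overlapped, and its log2 fold change of 0.09 ± 0.12 (SE, limma adjusted p = 0.759) had a 95% interval from -0.21 to 0.38. Of 12 listed HNF4A targets 0 were called, and their median was 0.03. Nr5a2, a phospholipid-binding receptor that promotes bile acid synthesis, gave 12.02, 12.22 and 12.24 in control mice and 11.76, 11.98 and 11.58 in TCE mice, which did not overlap (-0.39 ± 0.15 SE, limma adjusted p = 0.244), and its second probe gave -0.19 with overlapping groups. The estrogen-related receptors, which regulate mitochondrial genes, had negative changes: Esrra -0.20 ± 0.12 (SE), without overlap, and Esrrb -0.68 ± 0.29 (SE, limma adjusted p = 0.284). After normexp background correction Esrrb was -0.29 and Thra the lowest at -0.60. Esrrb gave 6.07, 5.99 and 6.63 in control mice and 5.22, 6.10 and 5.34 in TCE mice, so that TCE mouse 2 lay among the controls.

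The orphan receptors of the NR2 group included Nr2f2, the vein and stroma regulator COUP-TFII, with 10.33, 10.37 and 9.91 in control mice and 9.36, 10.01 and 9.45 in TCE mice. TCE mouse 2 again lay among the controls, and the log2 fold change was -0.60 ± 0.22 (SE, limma adjusted p = 0.237). Its relatives Nr2f1 and Nr2f6 had changes of -0.28 and -0.27, the latter without overlap, and Nr2c1 and Nr2c2 had changes of 0.20 and 0.24. A second Nr2c1 probe gave 8.43, 8.46 and 8.59 in control mice and 8.95, 8.81 and 8.90 in TCE mice. These did not overlap (0.40 ± 0.11 SE, limma adjusted p = 0.144), and a second Nr2c2 probe gave 0.23, also without overlap. Nr2f2 is expressed mainly outside hepatocytes, and in whole liver fewer cells of a type and less RNA per cell cannot be told apart. All 7 sinusoidal endothelial markers had lower means in TCE mice, with a median of -0.20 and 0 called, and their mean signal was 10.60 to 10.77 in control and 9.93 to 10.74 in TCE mice. Of 6 detected stellate cell markers, which include Lrat and Ngfr, 4 had lower means and 0 were called (2 lower with array weights, 1 with normexp and 1 with the mean of a gene's probes), with a median of -0.61, and their mean signal was 9.60 to 10.07 in control and 9.04 to 9.41 in TCE mice. The part of these cells in the values of Nr2f2, Rarb and Cyp26b1 was not tested. Lower means were not limited to these cells: the hepatocyte markers had a median of -0.18, with 7 of 9 lower. Of 8 Kupffer cell markers 7 had lower means and 0 were called (median -0.10). The calls were also 0 of 3 bile duct, 0 of 4 lymphocyte, 0 of 2 neutrophil and 0 of 3 exocrine pancreas markers. Of 3 red cell markers 1, Alas2, was lower at -0.91 (limma adjusted p = 0.0215). This call was lost with slide as a block (adjusted p = 0.069) and in 5 of the 6 fits without a mouse.

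Receptors act on chromatin through coactivators and corepressors, and several are held ready by chaperones. Of 18 detected coactivators, 1 was down-regulated: Med1, the Mediator subunit that binds PPARs and other receptors, gave 13.89, 14.12 and 14.24 in control mice and 13.14, 13.38 and 13.30 in TCE mice, and the change was -0.81 ± 0.14 (SE, limma adjusted p = 0.0473). This call rested on a single probe and on all 6 mice: with the mean of the gene's detected probes the change was -0.13 (adjusted p = 0.597), and the call was lost in each of the 6 fits without a mouse, with slide as a block (adjusted p = 0.0830) and with 75th percentile scaling (adjusted p = 0.0629). With 75th percentile scaling the coactivators held 1 gene higher and 0 lower, and with normexp or array weights 1 in each direction. The higher gene with that scaling was Prmt1, an arginine methyltransferase chosen after its values were seen, at 1.00 in the quantile-normalized data (adjusted p = 0.0542) and 1.07 with that scaling (adjusted p = 0.0391). Of 9 corepressors and 13 receptor chaperones 0 were called, with medians of 0.11 and -0.03, and the coactivator median was -0.02.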

How the data were processed

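Liver RNA of 3 control and 3 TCE mice was measured on 1-colour mouse arrays, 1 array per mouse. The authors extracted the spots with Agilent Feature Extraction 10.7.1.1, and the deposited scanner files give a background-subtracted processed intensity per spot, with the mean and background intensity beside it. A further table deposited by the authors holds group mean intensities, group means of quantile-normalized log2 values and detection flags, in which 6 columns of flags could not be tied to single mice and were not used. The deposited intensity of 59305 spots was set to missing at outlier flags (123 to 189 spots per array), put on the log2 scale without a pseudocount, averaged over the spots of each of 55681 probes and quantile normalized, as the methods describe; the group means lay within 0.01 of the deposited log2 means for 99.95% of the probes. Probe positions are those of the deposited annotation (mm9), and exon or UTR annotation of that build was not used here. Promoter windows on chromosome 18 were left out of the 64 windows of nuclear receptor genes. This rule was not applied to the 32851 windows or to the count of 43 genes.

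Detected probes (22731) were compared between groups by the lmFit and eBayes functions of limma 3.58.1 (R 4.3.3, with the package data.table, version 1.17.8), at an adjusted p of 0.05 or less with a fold change of 2 or more, or at any fold. Without adjustment, the methods' t-test was run as an alternative. For probes at background level in every mouse of a group the fold change is a lower limit, taking per array the higher of the lowest signal well above background and the probe's own, and holds for the processed signal only. The mice are separate animals. The members, gene lists and tests were chosen with earlier results of these data known. Named were all receptors with separated groups and a change of 0.5 or more, 11 ligand-binding or liver receptors whatever they did, the highest and lowest change, the others by value or range, and up to 3 called genes with the largest changes from each list; exceptions are stated. Alternatives were 75th percentile scaling, normexp background correction with an offset of 50, array weights, a mean-variance trend, inclusion of outlier spots, no or a stricter filter on dim probes, replicate number or slide as a block, the mean of a gene's probes and each mouse left out. Replicate numbers did not pair the mice (correlation of the deviations of same-numbered mice 0.09, 0.01 and -0.09). The test procedure was run on simulated data with 200 changed probes, and the outcome is not given here. DNA methylation, protein and cultured cells were not analysed here.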

Additional observations from a re-analysis of the deposited data

How the results depend on the processing

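The counts of receptors past the threshold stayed at 0 in either direction under all alternatives. Without the fold criterion, the methods' t-test without adjustment gave 2 higher and 2 lower receptors, normexp background correction gave 1 lower receptor (Thra), and the other alternatives, those with 1 mouse left out included (0 to 0), gave 0. No paired design is stated, and with the replicate block 0 receptors were called, with 40 genes higher and 5 lower over the whole array against 239 and 78 without it. With slide as a block 106 genes were higher and 22 lower, and without control mouse 1, in effect the same comparison, 96 were higher and 26 lower. The filter on dim probes and the test also moved the counts over all genes: 60 and 12 without a filter, and 29 and 8 with the adjusted t-test. Of the 15 called genes named from the lists of targets, enzymes and cofactors, 13 lost the call with the replicate block, 10 with slide as a block, 10 without the filter, 13 with the adjusted t-test and 7 to 10 in each fit without 1 mouse; Cyp4a14, Acot2, Cyp4a10, Rdh16 and Scd1 were called in all 6 of the latter.

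Signs changed only for values near 0 or with wide spread. Nr0b2 was 0.15 with slide as a block and -0.57 to 0.17 with 1 mouse left out. Thrb was 0.03 with 75th percentile scaling, 0.03 with normexp, 0.01 with array weights, 0.02 with the mean of its probes and -0.07 to 0.03 with 1 mouse left out. Nr3c2 was -0.00 with normexp, -0.06 with slide as a block, -0.13 with array weights and -0.33 to 0.40 with 1 mouse left out. Nr5a1 was -0.11 with slide as a block and -0.12 to 0.26 with 1 mouse left out. Rara was -0.03 with slide as a block, -0.03 with array weights, -0.03 with the mean of its probes and -0.05 to 0.16 with 1 mouse left out. The ranges with 1 mouse left out were -0.22 to 0.25 for Esr1, -0.25 to 0.11 for Nr1h5, -0.02 to 0.36 for Nr1i3, -0.04 to 0.33 for Nr2c1, -0.07 to 0.05 for Ppard, -0.12 to 0.67 for Rxrg, -0.71 to 0.22 for Arntl, -0.47 to 0.06 for Dbp and -0.69 to 0.21 for Per3. The cause of these changes was not tested. The other receptors kept their direction under the alternatives run, and the median of all genes was 0.02 to 0.05 under the 3 scalings. For Nr4a2 and Esrrb, near the background, the size depended on the background correction: 0.39 and -0.29 with normexp, against 0.80 and -0.68 without it. The SE did not follow brightness: it was 0.21 for Nr4a2, 0.29 for Esrrb and 0.38 for Nr3c2. For the brighter Nr0b2, Rxrg and Nr1d1 it was 0.40, 0.47 and 0.57.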
